A study of Homo sapiens with 24 samples.

Results

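Matrix metalloproteinases (MMPs) and the tissue inhibitors of metalloproteinases (TIMPs) were examined in MDA686TU cells, an established squamous carcinoma line from the head and neck, after exposure to epigallocatechin gallate (EGCG) and resveratrol. The 10 genes were chosen by name from the 60617 genes of the count table, with earlier results of these data known. They were the collagenases MMP1 and MMP13, the stromelysins MMP3 and MMP10, the matrilysin MMP7, the gelatinase MMP9, the membrane-type enzyme MMP14, the related secreted protease ADAMTS1, and the inhibitors TIMP1 and TIMP3. All 10 had a row in the table, and 9 passed the filter on low counts. MMP7 did not pass and was not tested in the main fit. The cells were left without treatment (control) or received EGCG at 40 µM, resveratrol at 15 µM, or both agents at these doses (combination). RNA was taken after 24 h, with 6 replicate libraries in each of the 4 groups. All groups came from 1 established line, so the values describe that line alone. EGCG was dissolved in water and resveratrol came from a stock in DMSO. Whether the control cells received DMSO was not given in the sources used here, so an effect of that solvent and an effect of resveratrol cannot be told apart.

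MMPs are zinc-dependent endopeptidases that cut the proteins of the extracellular matrix. Most are secreted as inactive proenzymes and are activated by removal of a propeptide, and MMP14 is held in the plasma membrane, where it can activate other MMPs. TIMPs bind the active site and block it. In squamous carcinoma of the head and neck these enzymes are known for their part in invasion through the basement membrane, and several of their promoters are known to respond to AP-1 factors.

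The genes lie on 6 chromosomes of GRCh38. MMP7, MMP10, MMP1, MMP3 and MMP13 lie in that order, all on the minus strand, within 435.225 kb of chromosome 11 (chr11:102520508-102955732). MMP9 is at chr20:46008908-46016561, MMP14 at chr14:22836560-22849041, ADAMTS1 at chr21:26835755-26845409, TIMP1 at chrX:47582408-47586789 and TIMP3 at chr22:32801705-32863041. All 10 are protein-coding genes. Other annotated genes overlap 6 of them, all on the opposite strand and all low in these libraries. The highest of these was WTAPP1, a pseudogene whose span overlaps MMP10, MMP1 and MMP3, with a mean of 3.11 normalized counts over the 24 libraries. Of the transcript sequence of MMP3, 3.18% of the 50-base windows were also found in MMP10. Of the windows of MMP10, 3.36% were found in MMP3, so a small share of their reads could be assigned to either gene.

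Promoter sequences were in the RefSeq table (GRCh38.p14) for 5 of the 10 genes, MMP7, MMP10, MMP14, TIMP1 and TIMP3. Windows of 250 bases that end at the base before the transcription start are printed for 4 of them, 5′ to 3′ on the gene's strand. They were chosen because MMP7 and MMP10 both lie in the chromosome 11 cluster and had different levels in these cells, and because MMP14 and TIMP3 were the 2 genes with a printed window that were higher with the combination. Capitals mark 3 motifs searched on both strands, the AP-1 site TGANTCA, the PEA3 site AGGAAG and the TATA box TATAAA, which do not overlap in these windows. The windows are MMP7 at chr11:102530748-102530997 on the minus strand, MMP10 at chr11:102780629-102780878 on the minus strand, MMP14 at chr14:22836335-22836584 on the plus strand, and TIMP3 at chr22:32801455-32801704 on the plus strand. The RefSeq starts of MMP7 and MMP14 lie just inside the gene spans given above, which are from GENCODE.
MMP7: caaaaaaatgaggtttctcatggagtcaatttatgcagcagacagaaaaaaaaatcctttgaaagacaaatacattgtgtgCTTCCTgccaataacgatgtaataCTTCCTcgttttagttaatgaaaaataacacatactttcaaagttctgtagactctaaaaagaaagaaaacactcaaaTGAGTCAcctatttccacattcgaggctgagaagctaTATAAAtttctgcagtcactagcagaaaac
MMP10: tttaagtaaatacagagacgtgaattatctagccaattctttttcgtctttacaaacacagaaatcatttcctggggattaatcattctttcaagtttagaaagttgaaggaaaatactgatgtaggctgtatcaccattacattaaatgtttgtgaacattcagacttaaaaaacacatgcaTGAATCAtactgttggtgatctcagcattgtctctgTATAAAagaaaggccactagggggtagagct
MMP14: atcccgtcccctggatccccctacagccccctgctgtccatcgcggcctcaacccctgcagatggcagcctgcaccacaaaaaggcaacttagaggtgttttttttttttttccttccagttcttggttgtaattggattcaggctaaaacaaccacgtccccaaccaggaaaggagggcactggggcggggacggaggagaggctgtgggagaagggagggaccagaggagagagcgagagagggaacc
TIMP3: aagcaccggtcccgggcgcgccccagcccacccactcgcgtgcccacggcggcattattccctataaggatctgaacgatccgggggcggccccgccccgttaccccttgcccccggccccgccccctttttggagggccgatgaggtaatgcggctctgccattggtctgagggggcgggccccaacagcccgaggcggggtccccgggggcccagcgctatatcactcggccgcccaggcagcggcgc

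The AP-1 motif was found in MMP7 as TGAGTCA and in MMP10 as TGAATCA, in each at positions -67 to -61 from the transcription start. A TATA box stood at -30 to -25 in MMP7 and at -31 to -26 in MMP10. MMP7 also held 2 PEA3 motifs on the other strand, and the TIMP1 window, which is not printed, held 1 at -87 to -82. None of the 3 motifs was found in the windows of MMP14 and TIMP3. Over 27305 RefSeq windows of the same length, 6.6% held the AP-1 motif, 28.7% the PEA3 motif and 11.1% the TATA box. G and C made up 33.6% of the MMP7 window, 34.4% of MMP10, 56.8% of MMP14 and 72.4% of TIMP3, against a median of 58.0%. These matches describe the letters in a window and are no measure of factor binding.

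The libraries held between 7034872 and 11735574 counts, and 15476 genes passed the filter on low counts. The mitochondrial share of a library was 0.249% to 0.326% for replicates 1 to 3, against 0.448% to 0.775% for replicates 4 to 6. This split is not named in the labels, and each set holds 3 libraries of every group, so values within each set are given below where they bear on a call. The labels do not say that the replicates were separate cultures, so p-values measure the spread between these libraries, which may be technical. All 8 squamous epithelial markers were expressed. Their summed normalized counts lay between 146871 and 155904 in the control, 140694 and 159242 for EGCG, 120730 and 128438 for resveratrol, and 118774 and 128766 for the combination. These sums hold genes that moved in opposite directions. With the combination against control, KRT5, KRT14, KRT17 and KRT6A were lower and TP63, CDH1 and DSG3 higher, past the threshold given below. Of all genes tested, 29.9% were higher and 29.9% lower there. All 5 leukocyte markers and 3 of 4 endothelial markers had means under 10, and so did 5 of 7 fibroblast markers. The fibroblast sum ran from 1117 to 1349 in the control, 898.2 to 1114 for EGCG, 1314 to 1559 for resveratrol and 1526 to 1755 for the combination, almost all of it from COL1A1, a fibrillar collagen gene. PTPRC, a leukocyte marker, and PECAM1, an endothelial marker, had means under 1 in every group. The sum of the 4 endothelial markers lay between 5.64 and 20.9 over all groups, and the 1 that was tested passed in no comparison.

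Levels are given as the authors' normalized counts, that is, raw counts divided by a size factor for each library. Differences are log2 fold changes with standard errors (SE) from a quasi-likelihood fit of the raw counts in edgeR, with all 24 libraries. A gene was past the threshold at a Benjamini-Hochberg adjusted p under 0.1, over all 15476 genes, together with an unadjusted p under 0.05. In these bulk samples, fewer cells that express a gene and less RNA in each cell cannot be told apart. The comparisons of a treatment with the control share the 6 control libraries.

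Resveratrol moved most of these genes and EGCG alone moved 1. With resveratrol, MMP14 and MMP13 rose while ADAMTS1, MMP3, MMP10, MMP9 and MMP1 fell. With the combination, MMP14, MMP13 and TIMP3 rose, ADAMTS1, MMP3, MMP10 and MMP1 fell, and MMP9 did not pass. Against resveratrol alone the combination was higher in MMP13, MMP14 and MMP3, of which the MMP14 and MMP3 calls were lost when single libraries were left out. For MMP13 and MMP3 the effect of EGCG differed with and without resveratrol. With resveratrol against control, 7 of the 9 tested genes passed, 2 higher and 5 lower, where 56.9% of all genes tested passed, 28.9% higher and 28.0% lower. With the combination against control, 7 of 9 passed, 3 higher and 4 lower, against 59.8% of all genes, 29.9% higher and 29.9% lower. A share of 7 in 9 is read against a background in which most genes passed. With EGCG against control 1 of 9 passed, MMP3, which fell, where 1.76% of all genes passed, 0.905% higher and 0.859% lower. In absolute size, the 9 genes had a median log2 fold change of 0.15 for EGCG, 0.60 for resveratrol and 0.52 for the combination, where all genes tested had 0.06, 0.20 and 0.22. Absolute sizes include noise, which is larger for genes with few counts. With EGCG, for example, MMP9 (SE 0.177), MMP10 (SE 0.147) and TIMP1 (SE 0.142) did not pass.

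**Figure D1:**
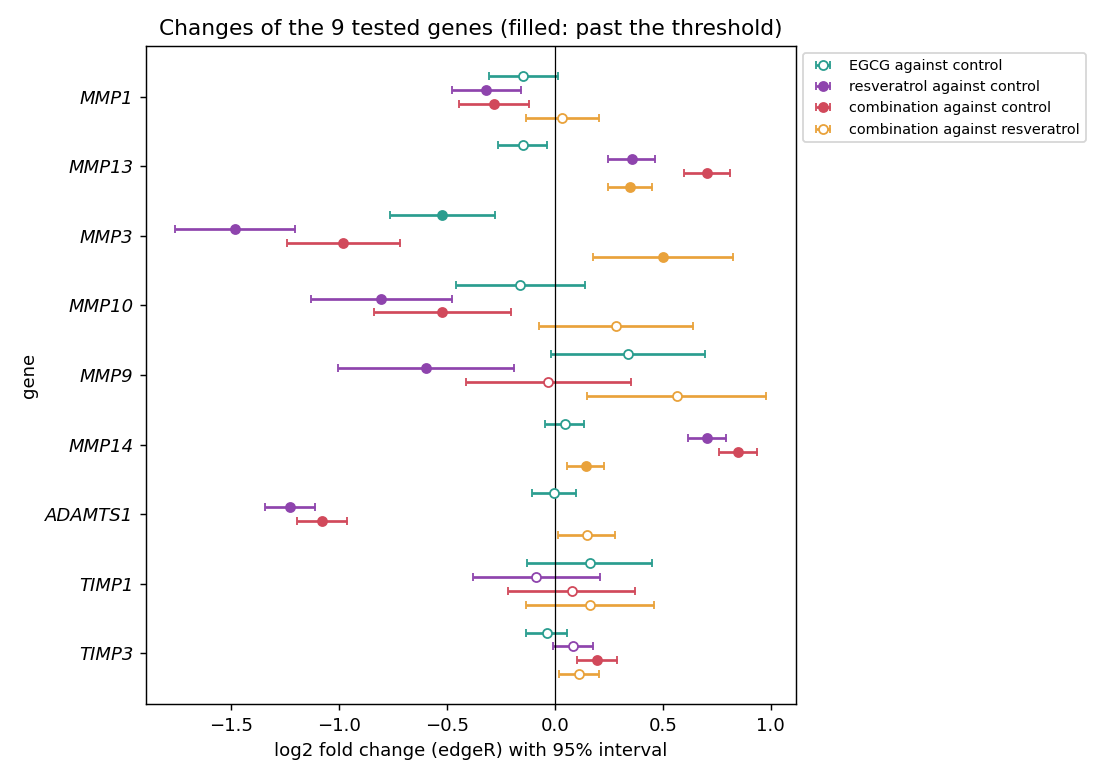
Log2 fold change (horizontal axis) of the 9 tested genes in 4 comparisons, with 95% intervals from edgeR. Filled points passed the threshold. MMP13 and MMP14 lie to the right of 0 with resveratrol and with the combination, ADAMTS1, MMP3, MMP10 and MMP1 lie to the left, and the TIMP1 intervals all cross 0.

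MMP14 (ENSG00000157227), the membrane-type enzyme that activates pro-MMP2 at the cell surface, was the most abundant of the 10. In the control its 6 libraries ran from 851.5 to 973.1 normalized counts, with a median of 952.5. With EGCG they ran from 866.6 to 1061, with a median of 977.1. With resveratrol the lowest was 1485, the median 1518 and the highest 1552. All resveratrol libraries stood above every library of the control and EGCG groups, and with the combination the values rose further, from 1596 to 1866 with a median of 1643. Against control, the log2 fold change was 0.70 (SE 0.0431, adjusted p = 3.38e-16 in edgeR) with resveratrol and 0.85 (SE 0.0431, adjusted p = 1.27e-18) with the combination, that is, 1.63-fold and 1.80-fold. EGCG alone gave 0.05 with a 95% interval of -0.04 to 0.14. Within replicates 1 to 3 the resveratrol change was 0.69, and within replicates 4 to 6 it was 0.73.

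MMP13 (ENSG00000137745), a collagenase with a preference for type II collagen, also rose. The control libraries ran from 294.4 to 361.8 normalized counts (median 346.7) and the EGCG libraries from 291.2 to 324.8 (median 300.8). With resveratrol they ran from 399.3 to 464.4 (median 432.6) and with the combination from 482.6 to 603.2 (median 546.6). The combination libraries all stood above the resveratrol libraries, which all stood above the control, while the EGCG libraries overlapped with the lower part of the control. The log2 fold change against control was 0.36 (SE 0.0533, adjusted p = 6.49e-07) with resveratrol and 0.70 (SE 0.0524, adjusted p = 5.10e-14) with the combination. With EGCG alone it was -0.15 (SE 0.0563), with an unadjusted p of 0.0122 and an adjusted p of 0.278, so the gene did not pass. COL1A1 moved with the same order of groups as MMP13, at 1182 ± 92.5 normalized counts in the control, 980.6 ± 85.9 for EGCG, 1445 ± 90.8 for resveratrol and 1650 ± 88.3 for the combination (SD, n = 6). THY1, a marker of fibroblasts, was at 0 in all groups, and DCN was at 0.175 or below. COL1A2, the other fibroblast marker that was tested, was higher with the combination against EGCG, where 28.7% of all genes were. It passed in no other comparison. The part of COL1A1 in the MMP13 result was not tested.

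MMP1 (ENSG00000196611), the interstitial collagenase, fell by less. The control libraries held 103.0 to 122.6 normalized counts with a median of 117.2, and the EGCG libraries 96.56 to 116.8 with a median of 101.8. Those with resveratrol held 79.28 to 106.8 (median 92.96), and those with the combination 81.58 to 102.6 (median 96.96). All 6 combination libraries lay below the lowest control, and 4 of 6 resveratrol libraries did. On the log2 scale the change was -0.32 (SE 0.0797, adjusted p = 0.00107) with resveratrol and -0.28 (SE 0.0809, adjusted p = 0.00335) with the combination. In replicates 1 to 3 alone the combination gave -0.23 (adjusted p = 0.109), and in replicates 4 to 6 alone -0.33 (adjusted p = 0.0316). With EGCG alone it was -0.15 (95% interval -0.31 to 0.01), which did not pass. MMP1 and MMP13 are collagenases that lie near each other on chromosome 11, and with resveratrol their changes had opposite signs.

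MMP3 (ENSG00000149968), stromelysin 1, cuts matrix proteins and activates other pro-MMPs. It was the one of the 9 tested genes that passed with EGCG alone. Its control libraries ran from 46.54 to 64.51 normalized counts, with a median of 58.15. With EGCG they ran from 33.00 to 45.66, with a median of 39.94. Every EGCG library lay below every control library. With resveratrol the libraries ran from 16.24 to 25.32 (median 19.37) and with the combination from 19.29 to 35.75 (median 30.40). Both groups lay wholly below the control, and they overlapped with each other. The log2 fold change against control was -0.52 (SE 0.120, adjusted p = 0.0143) for EGCG, -1.48 (SE 0.136, adjusted p = 1.75e-11) for resveratrol and -0.98 (SE 0.130, adjusted p = 4.93e-08) for the combination. The libraries of 1.58% of all genes were apart between EGCG and control. Within replicates 1 to 3 the EGCG change was -0.61 (adjusted p = 0.212) and within replicates 4 to 6 it was -0.44 (adjusted p = 0.545), so neither set of 3 against 3 passed alone.

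MMP10 (ENSG00000166670), stromelysin 2, also fell with resveratrol and with the combination. The control libraries held 33.67 to 45.23 normalized counts (median 40.29). The EGCG libraries held 26.99 to 50.48 (median 33.29), the resveratrol libraries 12.56 to 27.70 (median 24.21) and the combination libraries 21.53 to 34.19 (median 26.15). The resveratrol libraries lay wholly below the control, 5 of 6 combination libraries did, and the EGCG libraries spread across it. On the log2 scale the change was -0.80 (SE 0.160, adjusted p = 6.58e-05) with resveratrol, -0.52 (SE 0.157, adjusted p = 0.00511) with the combination and -0.16 (95% interval -0.46 to 0.14) with EGCG. The MMP10 promoter printed above holds the AP-1 motif and a TATA box. MMP7 (ENSG00000137673), matrilysin, whose window holds these motifs at almost the same places, had a mean of 3.29 ± 1.71 normalized counts in the control, 4.85 ± 2.14 after EGCG, 2.71 ± 1.56 after resveratrol and 4.88 ± 1.07 after the combination (SD, n = 6). Every pair of groups overlapped. Raw counts of MMP7 ran from 1 to 6 with resveratrol and from 3 to 6 with the combination, and the main fit held no test of this gene.

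MMP9 (ENSG00000100985), gelatinase B, which cuts denatured collagen and type IV collagen, had the widest spread among control libraries for its level of the 9 tested genes. They ran from 19.94 to 50.40 normalized counts with a median of 27.18. With EGCG they ran from 26.20 to 46.28 (median 39.93), with resveratrol from 15.48 to 25.91 (median 18.16) and with the combination from 23.83 to 32.86 (median 31.59). The 3 treated groups each overlapped with the control, and 4 of 6 resveratrol libraries lay below the lowest control. With resveratrol the log2 fold change was -0.60 (SE 0.201, adjusted p = 0.0126). It was -0.80 (adjusted p = 0.0171) in replicates 1 to 3 alone and -0.31 (adjusted p = 0.376) in replicates 4 to 6 alone. With EGCG it was 0.34 (95% interval -0.02 to 0.70), and with the combination -0.03 (95% interval -0.41 to 0.35), and neither passed. The sign of the combination value turned with scaling by library size alone, at 0.05, and in replicates 4 to 6 alone, at 0.25.

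ADAMTS1 (ENSG00000154734), a secreted protease with thrombospondin motifs that cuts proteoglycans such as versican, fell the most of the 9 tested genes with the combination and was second to MMP3 with resveratrol. The control libraries ran from 384.6 to 451.5 normalized counts (median 416.3) and the EGCG libraries from 383.2 to 459.4 (median 414.3). The resveratrol libraries ran from 170.4 to 187.7 (median 179.6) and the combination libraries from 175.6 to 217.1 (median 200.1). Every library with resveratrol, alone or combined, lay far below every library without it, and the EGCG libraries covered the same range as the control. The log2 fold change was -1.23 (SE 0.0574, adjusted p = 1.87e-19) with resveratrol, or 0.427 of the control level. With the combination it was -1.08 (SE 0.0574, adjusted p = 4.71e-18). With EGCG the 95% interval was -0.11 to 0.10. Within the sets the resveratrol change was -1.26 (replicates 1 to 3) and -1.17 (replicates 4 to 6).

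Of the inhibitors, TIMP3 rose slightly with the combination, and no comparison passed for TIMP1. TIMP3 (ENSG00000100234), which binds to the matrix and also inhibits several ADAM proteases, held 574.2 to 635.4 normalized counts in the control (median 610.5) and 531.7 to 646.4 with EGCG (median 587.6). It held 607.8 to 688.4 with resveratrol (median 643.5) and 629.6 to 779.6 with the combination (median 699.5). The groups overlapped, and 5 of 6 combination libraries stood above the highest control. The log2 fold change with the combination was 0.20 (SE 0.0462, adjusted p = 0.000479), or 1.15-fold. In replicates 1 to 3 the mean went from 617.5 normalized counts in the control to 666.6 with the combination. In replicates 4 to 6 it went from 603.8 to 730.1, a larger step. With resveratrol the log2 fold change was 0.08 (SE 0.0461, adjusted p = 0.131), which did not pass. It passed with scaling by library size alone (0.17, adjusted p = 0.00169), with a stricter filter on low counts (0.11), with the compared groups alone in the fit (0.09), and when any 1 of 6 libraries was left out (EGCG replicates 1, 2 and 4, control replicates 3 and 6, and resveratrol replicate 6), at 0.10 to 0.11. TIMP1 (ENSG00000102265), a broad secreted inhibitor, held 33.24 to 48.92 normalized counts in the control (median 39.45) and 38.70 to 54.94 with EGCG (median 42.48). It held 31.99 to 42.53 with resveratrol (median 37.04) and 27.08 to 58.11 with the combination (median 44.65). All 4 groups overlapped. The 95% intervals of its log2 fold change against control were -0.13 to 0.45 for EGCG, -0.38 to 0.21 for resveratrol and -0.22 to 0.37 for the combination.

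**Figure D2:**
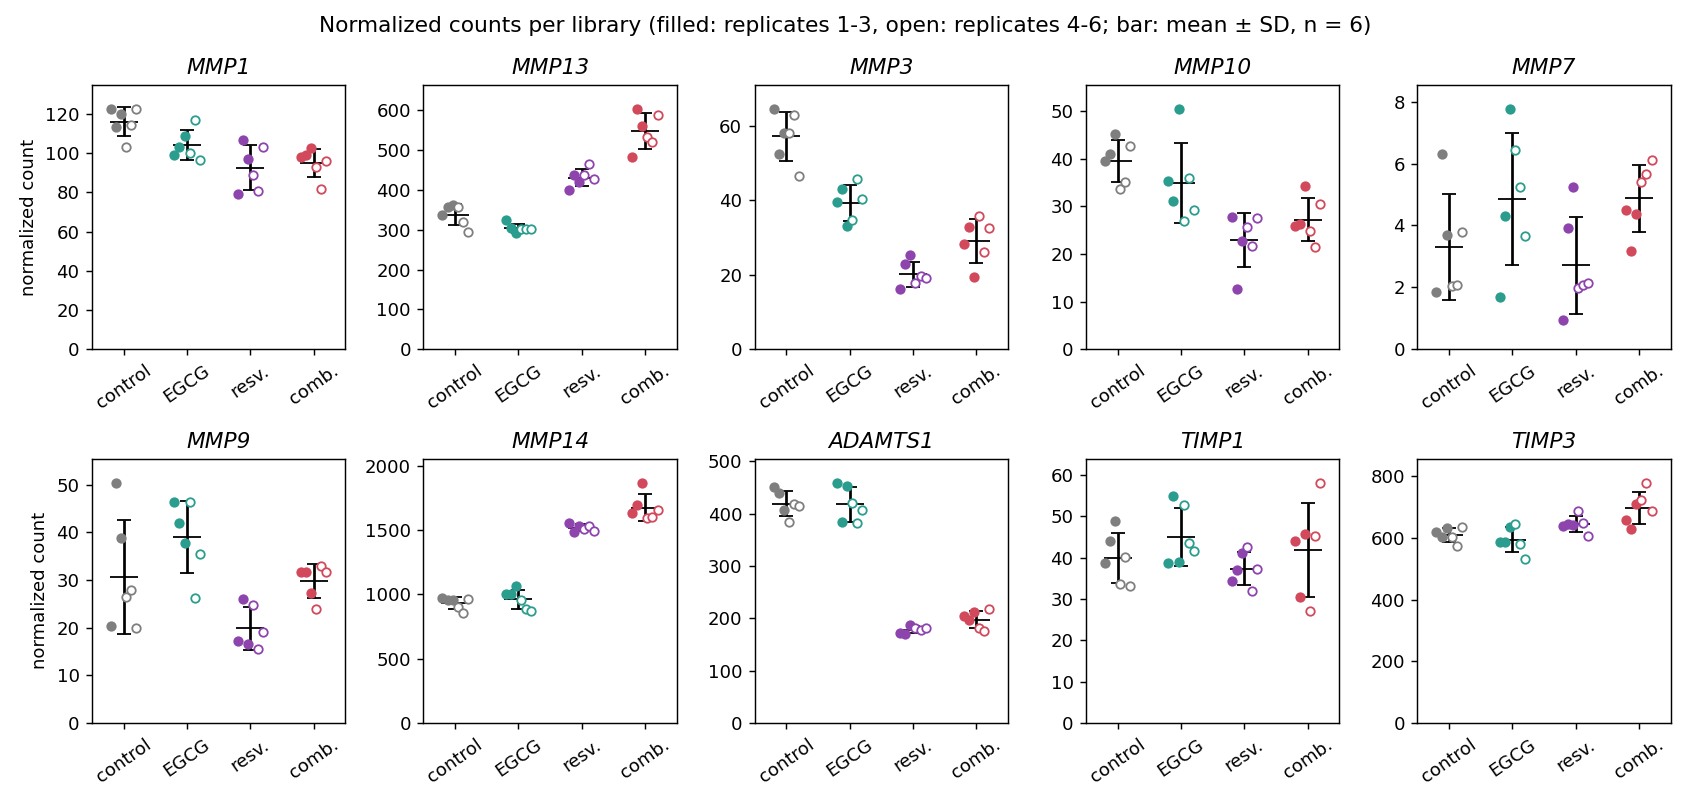
Normalized count per library (vertical axis, from 0) of the 10 genes in the 4 groups, with filled points for replicates 1 to 3, open points for replicates 4 to 6, and bars for the mean ± SD (n = 6). MMP14 and MMP13 step up with resveratrol and again with the combination, ADAMTS1 splits into libraries with and without resveratrol, and MMP7 stays below 10 in every library.

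Between resveratrol and control, 5 of the 9 tested genes had no overlap (MMP13 and MMP14 higher, MMP3, MMP10 and ADAMTS1 lower), where 31.0% of all genes tested had none. Between the combination and control it was again 5 genes (MMP13 and MMP14 higher, MMP1, MMP3 and ADAMTS1 lower), where 31.9% had none.

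The combination was then set against each agent alone. Against resveratrol, 3 of the 9 genes passed, all higher, where 7.86% of all genes passed, 4.01% as higher and 3.86% as lower. MMP13 was higher by 0.35 (SE 0.0505, adjusted p = 1.32e-05), MMP14 by 0.14 (SE 0.0416, adjusted p = 0.0359) and MMP3 by 0.50 (SE 0.160, adjusted p = 0.0591) on the log2 scale. The libraries of MMP13 and MMP14 did not overlap between these groups, where 3.2% of all genes had none, and for MMP3 5 of 6 combination libraries stood above the highest resveratrol library. The MMP14 call was lost without combination replicate 3, at 0.11 (adjusted p = 0.118), and within replicates 4 to 6 alone, at 0.10 (adjusted p = 0.337). The MMP3 call was lost when any 1 of 5 libraries was left out (resveratrol replicates 1 and 4 and combination replicates 2, 4 and 6), at 0.43 to 0.47, and with DESeq2, with every gene of at least 1 count tested, or with the compared groups alone in the fit (adjusted p = 0.105 to 0.148). MMP9 had a difference of 0.56 (95% interval 0.15 to 0.98), which did not pass at an adjusted p of 0.109 but did with the replicate number as a block (0.58, adjusted p = 0.0541) and under 3 other settings, and when any 1 of 7 libraries was left out (control replicates 1, 2 and 6, EGCG replicate 5, resveratrol replicates 2 and 4, and combination replicate 4), at 0.56 to 0.67.

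Against EGCG, 7 of 9 genes passed, 3 higher and 4 lower, where 57.8% of all genes did, 28.7% higher and 29.1% lower. MMP13 was higher by 0.85 (SE 0.0533, adjusted p = 6.07e-16), MMP14 by 0.80 (SE 0.0431, adjusted p = 8.71e-18) and TIMP3 by 0.23 (SE 0.0465, adjusted p = 6.73e-05). ADAMTS1 was lower, at -1.08 (SE 0.0576, adjusted p = 8.25e-18), and so was MMP3, at -0.46 (SE 0.140, adjusted p = 0.00586). The MMP3 mean with the combination was 0.693 of that with EGCG in replicates 1 to 3 and 0.782 in replicates 4 to 6. In replicates 4 to 6 alone, 4 genes had an unadjusted p under 0.05 in edgeR against EGCG. In the main fit MMP10, at -0.36 (SE 0.161, adjusted p = 0.0583), and MMP9, at -0.37 (SE 0.18, adjusted p = 0.0822), passed narrowly. The MMP10 call was lost when any 1 of 6 libraries was left out (EGCG replicates 1 and 3 and combination replicates 1, 2, 4 and 5), at -0.35 to -0.23. The MMP9 call was lost when any 1 of 14 was left out (control replicates 3 to 6, EGCG replicates 1 to 4, resveratrol replicate 6, and combination replicates 1, 2, 3, 4 and 6), at -0.39 to -0.28, with DESeq2 at -0.38 (adjusted p = 0.0935, with an unadjusted p over 0.05), with the stricter filter at -0.34, and with library size alone at -0.30, where MMP10 was also lost at -0.29. The libraries of MMP13, MMP14 and ADAMTS1 did not overlap between these groups, where 27.5% of all genes had none.

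The interaction asks whether the log2 effect of EGCG with resveratrol present differed from its effect without. For MMP3 and MMP13 it did. The fitted EGCG effect was below 0 without resveratrol and above 0 with it, although the value for MMP13 without resveratrol did not pass. MMP3 went from 57.1 ± 6.68 normalized counts in the control to 39.4 ± 4.83 with EGCG, but from 20.1 ± 3.34 with resveratrol to 29.1 ± 5.93 with the combination (SD, n = 6). EGCG thus took MMP3 to 0.690 of its level without resveratrol and to 1.44 of its level with it. The product of the separate ratios would have put the combination at 13.9 normalized counts. The interaction of MMP3 was 1.02 on the log2 scale (SE 0.200, 95% interval 0.62 to 1.43, adjusted p = 0.00958). MMP13 went from 337.5 ± 26.7 to 303.7 ± 11.2 with EGCG alone, and from 431.0 ± 21.8 to 547.9 ± 44.9 with resveratrol present, where the product of the ratios would have given 387.8. Its interaction was 0.50 (SE 0.0756, 95% interval 0.34 to 0.65, adjusted p = 0.000667). The 2 of 9 genes compare with 0.265% of all genes that passed (0.207% above 0 and 0.0582% below), 41 in number. In the order of p over all genes, MMP13 was 3rd and MMP3 17th. The genes were chosen with earlier results of these data known, so the share and the places are a description and no test of the family.

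Both interactions passed without each of the 24 libraries in turn, at 0.95 to 1.13 for MMP3 and 0.47 to 0.53 for MMP13. Within replicates 1 to 3 the MMP3 interaction was 0.88 (adjusted p = 0.645) and within replicates 4 to 6 it was 1.18 (adjusted p = 0.152), and for MMP13 the values were 0.58 (adjusted p = 0.0666) and 0.41 (adjusted p = 0.11). With the replicate set as a term in the fit of all libraries, both passed, at 1.02 and 0.50. The interactions of the other 7 tested genes did not pass. Among them TIMP3, at 0.15 (95% interval 0.02 to 0.28, adjusted p = 0.575), and MMP10, at 0.44 (95% interval -0.02 to 0.91, adjusted p = 0.681), had the smallest p. COL1A1 also had an interaction past the threshold, 0.46 (SE 0.0720, adjusted p = 0.000786).

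**Figure D3:**
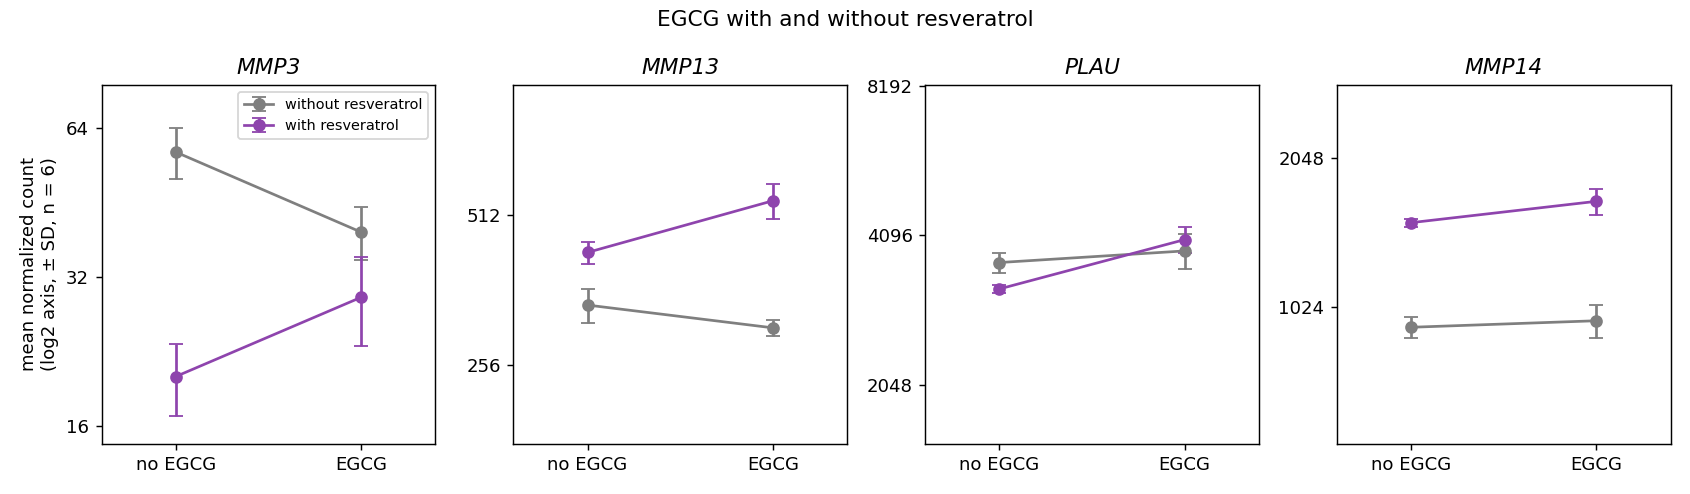
Mean normalized count ± SD (n = 6, log2 vertical axis, same fold range in each panel) without and with EGCG, in cells without resveratrol (grey) and with it (purple). The lines of MMP3 and MMP13 slope down without resveratrol and up with it, those of PLAU cross, and those of MMP14 lie nearly parallel.

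Levels were compared between genes per length, as the authors' FPKM values. In the control, MMP14 was highest at 24.0 ± 1.22 FPKM (SD, n = 6), apart from the next gene. TIMP3 at 15.2 ± 0.564 and MMP13 at 13.7 ± 1.08 overlapped in their libraries. ADAMTS1 at 6.81 ± 0.386 and MMP1 at 6.74 ± 0.434 also overlapped. MMP3 at 3.53, TIMP1 at 3.15, MMP10 at 2.58 and MMP9 at 1.5 formed a lower run in which each overlapped with the next, and MMP7 at 0.162 stood apart below them. The sum over the 7 MMP genes was 52.1 ± 2.28 FPKM in the control, 49.9 ± 2.43 for EGCG, 65.6 ± 0.687 for resveratrol and 76.0 ± 4.07 for the combination. The sum of TIMP1 and TIMP3 was 18.4 ± 0.753, 18.4 ± 1.29, 19.0 ± 0.824 and 20.7 ± 1.70 FPKM in the same order. With resveratrol, MMP14 and MMP13 were the MMP genes with a mean above that of the control.

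The rest of the MMP system was described by 5 lists chosen by gene name. Of 16 other MMP genes, 6 were tested. With the combination against control 4 of them rose and 1 fell, where 59.8% of all genes passed, 29.9% higher and 29.9% lower. The genes that rose were MMP28, by 0.77 (SE 0.0731), MMP15 by 0.69 (SE 0.0589), MMP11 by 0.60 (SE 0.192) and MMP17. MMP2, a gelatinase, fell by 0.10 (SE 0.0426, adjusted p = 0.0508) on the log2 scale. MMP15 and MMP17 are membrane-type enzymes, as is MMP14. MMP16, also of this type, did not pass, at 0.19 (SE 0.209, adjusted p = 0.447 in edgeR). MMP24 and MMP25, of this type as well, were not tested. The 6 tested genes had a median log2 fold change of 0.50, where the median of all genes was 0.00.

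Of 5 other inhibitors, 4 were tested, and 3 rose with the combination, where 29.9% of all genes were higher. TIMP4 went from 10.3 ± 2.15 normalized counts in the control to 29.8 ± 3.77 with the combination (log2 fold change 1.53, SE 0.169, adjusted p = 1.03e-09). Its control level was near the filter's minimum count of 10, and a gene could pass the filter through the libraries of 1 group alone. TIMP2, which takes part in the activation of pro-MMP2 by MMP14, went from 176.9 ± 20.7 to 336.5 ± 13.8 (0.94, SE 0.0676, adjusted p = 2.35e-14), and TFPI2, a serine protease inhibitor of the matrix, rose by 0.34 (SE 0.0766). With resveratrol alone TIMP2, TIMP4 and RECK, a membrane-anchored inhibitor, passed as higher, where 28.9% of all genes were higher. RECK did not pass with the combination, at 0.23 (SE 0.136, adjusted p = 0.183 in edgeR). Unlike TIMP1, TIMP2 had libraries with resveratrol (311.3 to 366.4) wholly above the control (153.9 to 204.0). Of all genes tested, 31.0% had no overlap between these groups, in either direction.

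Of 18 other ADAMTS genes, 7 were tested, and with the combination 3 rose and 1 fell, a share near the 59.8% of all genes that passed. ADAMTS13, which cuts von Willebrand factor, rose by 2.01 (SE 0.334), ADAMTS17 by 0.80 (SE 0.175) and ADAMTS12 by 0.54 (SE 0.249). The SE of ADAMTS13 was the largest of these, so the size of its rise is imprecise. Its counts are not given here, and a gene could pass the filter through the libraries of 1 group alone. ADAMTS6 fell. Of 9 proteolytic ADAM genes, 7 were tested, and with the combination 2 fell (ADAM9 and ADAM10). The 5 that rose were ADAM8, ADAM12, ADAM15, ADAM17 and ADAM19. Of all genes tested, 29.9% were higher and 29.9% lower. The largest rises were in ADAM8, at 0.54 (SE 0.0698), ADAM12, at 0.53 (SE 0.151), and ADAM19, at 0.42 (SE 0.103). With EGCG alone, 2 of the 37 genes tested in the 5 lists passed, where 1.76% of all genes did, ADAMTS15 lower by 0.55 (SE 0.120, adjusted p = 0.00958) and ADAM8 higher by 0.31 (SE 0.0711, adjusted p = 0.0129), named after their values were seen.

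Of 14 genes for pro-MMP activation and docking at the cell surface, 13 were tested, and with the combination 9 rose and 2 fell, where 59.8% of all genes passed, 29.9% higher and 29.9% lower. PLAT, the tissue plasminogen activator, rose by 1.24 (SE 0.0841), ST14, which encodes matriptase, by 0.56 (SE 0.0425), and CTSB, cathepsin B, by 0.56 (SE 0.0272). BSG, which encodes an inducer of MMPs, and SDC1, a cell-surface proteoglycan, fell. PLAU, the urokinase plasminogen activator, was the single gene of the 37 with an interaction past the threshold, where 0.265% of all genes passed, at 0.25 (SE 0.0581, adjusted p = 0.0588). Its means were 3610 ± 168 normalized counts in the control, 3810 ± 311 for EGCG, 3193 ± 56.7 for resveratrol and 4015 ± 241 for the combination (SD, n = 6). PLAU was lower than the control with resveratrol alone and higher with the combination, and both differences passed, at -0.17 (SE 0.0412, adjusted p = 0.000600) and 0.16 (SE 0.0411, adjusted p = 0.00141).

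**Figure D4:**
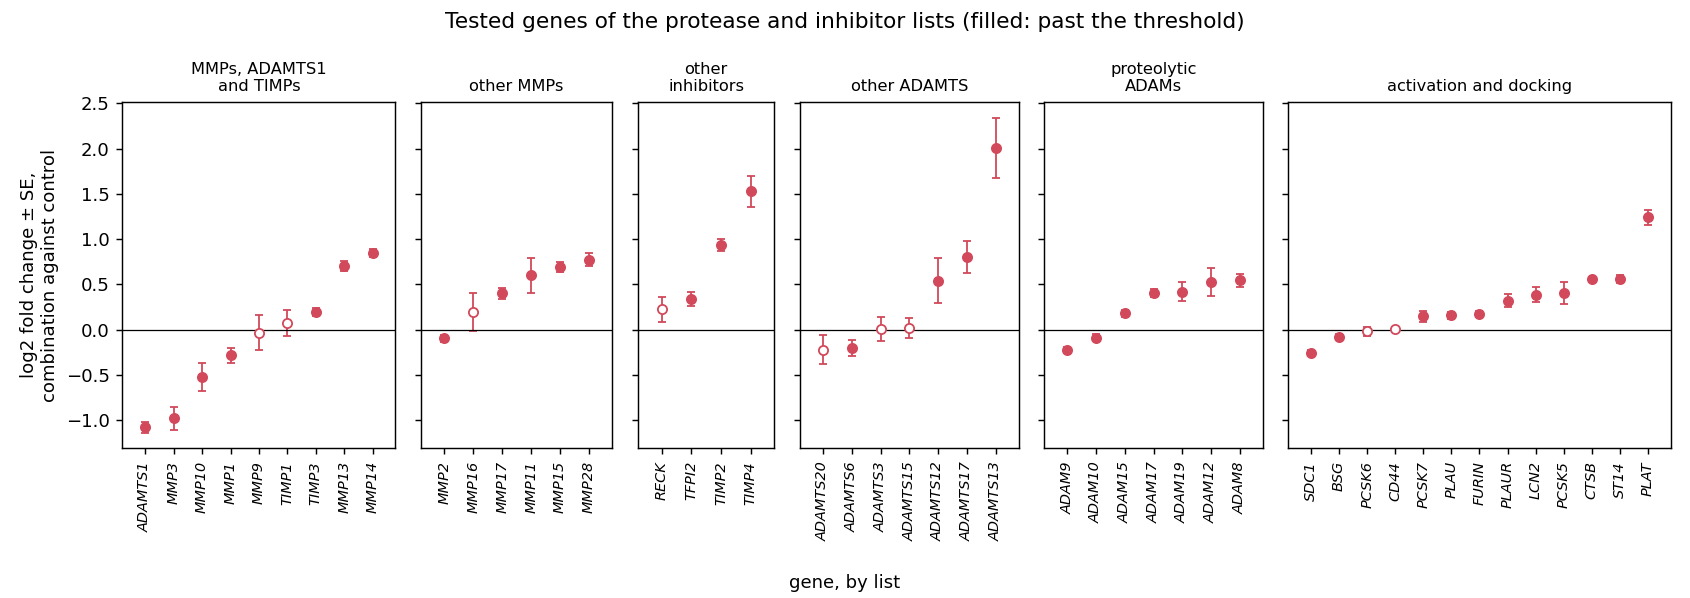
Log2 fold change of the combination against control (vertical axis, ± SE from edgeR) for the tested genes of each list, one column for each gene, sorted within a list. Filled points passed the threshold. ADAMTS13, TIMP4 and PLAT have the highest values, and the lowest are ADAMTS1 and MMP3.

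The genes whose pattern was most like that of each member were found by Pearson's r of log2 CPM over the 24 libraries, among 14922 genes with a mean of at least 10 normalized counts. The libraries form 4 groups and share their depth and scaling, so r mostly follows the group means. LIMA1 was among the genes nearest to MMP3 (r = 0.924). MMP13 was nearest to RGS3 (0.943). MMP14 was nearest to CDKN1A, a cell cycle inhibitor, and MVD, an enzyme of sterol synthesis (0.990 each). ADAMTS1 was nearest to FAM83C (0.992) and NRG1 (0.985), the gene of an ERBB ligand. The highest r was lower for TIMP3 (IQGAP3, 0.844), MMP10 (ATXN7L3, 0.836), MMP1 (NEXN, 0.806), MMP9 (LHFPL6, 0.784) and TIMP1 (ENSG00000235912, 0.668).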

How the data were processed

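Total RNA was isolated in sextuplicate for each group, and stranded mRNA libraries were sequenced as paired reads. Per the submitters' processing notes and the methods, the reads were handled with bcl2fastq 2.17.1.14, Trimmomatic 0.36, FastQC 0.11.5, HISAT2 2.0.4 on GRCh38, SAMtools 1.3.1 and DESeq2 1.20.0. The counting program, annotation release and strand setting are not given in the sources used here. The authors deposited raw counts per gene, normalized counts (a signal per gene, the counts divided by size factors) and FPKM, with no replicates pooled. The authors' own comparisons were not used.

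Tests ran in edgeR 4.0.16 under R 4.3.3 on the raw counts (TMM, filterByExpr with a minimum count of 10, glmQLFTest, 24 libraries, 1 mean per group). The biological coefficient of variation was 5.32%. Genes past the threshold had an adjusted p under 0.1 and p under 0.05. Totals of 7034872 to 11735574 counts limit precision for the low genes, MMP7 above all. Steps were tested on simulated data. Symbols and positions came from GENCODE v44 by Ensembl ID. Alternatives were DESeq2 1.42.0, other scalings, filters, thresholds and groups in the fit, a replicate block or set, each set alone, and each library left out. The genes, lists and tests were chosen with earlier results of these data known. The text names the 10 genes, the genes that overlap them, up to 3 genes per list with the largest change in the combination, interactions past the threshold, markers and nearest patterns, some of which are not reported here. Other genes named with a count were chosen after their values were seen. RT-qPCR, Western blots and mouse experiments were not analysed here.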

Additional observations from a re-analysis of the deposited data

Results flagged for a closer look

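Among 40 gene and group combinations, 2 had a library whose gap to the next, over the range of its 6 libraries, was above Dixon's critical value, and chance gives about 1 in 20. MMP13 was highest in EGCG replicate 1, at 324.8 normalized counts (gap over range 0.626). MMP14 was highest in combination replicate 3, at 1866 (0.642), and without that library the difference in MMP14 between combination and resveratrol was 0.11 (adjusted p = 0.118 in edgeR) in place of 0.14.

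The effect of EGCG differed between cells with and without resveratrol for MMP3, by 1.02 on the log2 scale, and for MMP13, by 0.50, in the test of the interaction. MMP3 was lower with EGCG in 6 of 6 libraries against the control mean, and higher in 5 of 6 against the resveratrol mean. MMP13 was lower in 6 of 6 and higher in 6 of 6.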

How the results depend on the processing

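The counts of members past the threshold were within 1.5 times the reported count under DESeq2, both other scalings, both other filters, fits of the compared groups alone, the replicate block, the replicate set as a term and an adjusted p under 0.05. With a change of at least 1.5-fold required, 0 of the genes passed with EGCG, 4 with the combination against control, 0 against resveratrol, 3 against EGCG, and 1 for the interaction. In replicates 1 to 3 alone, 0 passed with EGCG and 1 for the interaction. In replicates 4 to 6 alone, 0 passed with EGCG, 1 with the combination against resveratrol, 4 against EGCG, and 0 for the interaction. These sets hold 3 libraries a group, and the 1.5-fold setting drops smaller changes by its construction. At an unadjusted p under 0.05 in edgeR, the EGCG comparison held 2 genes in the first of these sets and 1 in the second, and the interaction held 3 in the second.

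Leaving out each library gave 1 gene with EGCG, 7 to 8 with resveratrol, 7 with the combination, 2 to 4 against resveratrol, 5 to 7 against EGCG, and 2 for the interaction. Log2 fold changes that turned sign then ranged from -0.0369 to 0.0243 for ADAMTS1 with EGCG, -0.0063 to 0.0860 for MMP1 between combination and resveratrol, -0.131 to 0.156 for MMP9 with the combination, -0.0395 to 0.172, -0.201 to 0.0111, -0.125 to 0.0024 and -0.114 to 0.0973 for TIMP1 with the combination against control, against EGCG, with resveratrol and for the interaction. None of these passed as reported. Other sign turns were ADAMTS1 with EGCG 0.0039 (library size alone), TIMP1 with EGCG -0.0097 (replicates 1 to 3), MMP14 with EGCG -0.013 (replicates 4 to 6), TIMP1 with resveratrol 0.0017 (library size) and 0.066 (replicates 4 to 6), MMP9 with the combination 0.051 (library size) and 0.25 (replicates 4 to 6), TIMP1 with the combination -0.10 (replicates 1 to 3), MMP1 between combination and resveratrol -0.0059 (replicates 4 to 6), and the TIMP1 interaction -0.011 (library size) and -0.12 (replicates 4 to 6). The cause was not tested.

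The labels do not say whether libraries of the same replicate number belong together, and the main fit held no term for the number. Deviations of the 36 same-number pairs correlated at -0.0111 to 0.131, with 2 over 0.1. Their median was 0.0488, against 0.0276 for other numbers of the same set and -0.0406 for numbers of different sets. Of the 24 libraries, 11 correlated best with their own number, so a weak shared part by number or set is possible. With the replicate number as a block, 4 genes passed between combination and resveratrol, with MMP9 (0.58) added, the TIMP1 interaction was -0.0037, and the member counts of the other comparisons stayed at 1, 7, 7, 7 and 2.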
